A study of Mus musculus with 17 samples.

Results

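Open chromatin was described at the 3 Nr4a genes, Nr4a1 (ENSMUSG00000023034.7), Nr4a2 (ENSMUSG00000026826.13) and Nr4a3 (ENSMUSG00000028341.9), in neurons of the mouse nucleus accumbens. All peaks of 17 ATAC-seq libraries that overlapped a gene body or its flanks of 20 kb were taken and merged by 1 bp of overlap. They formed 49 regions, 29 at Nr4a1, 5 at Nr4a2 and 15 at Nr4a3, out of 281189 regions in the series. Of these 49 regions, 27 were kept because at least 2 libraries of a group called them (147420 in the series), and 8 were called in every library (36847 in the series).

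ATAC-seq marks open DNA through insertion of adapters by a transposase, and the nuclei had been sorted for NeuN, a nuclear protein of neurons. The mice (C57BL/6 in the labels, C57BL/6J in the methods of the study), aged 52 to 54 days, were proestrus females, diestrus females or males. Cocaine groups were killed 1 hour after 10 mg/kg cocaine into the peritoneum, and controls, given none, were a baseline at 0 hours. Cocaine thus cannot be told apart from the hour of waiting or, as an injection of controls is not described, from the injection. Each library pooled tissue of 3 mice, with 3 libraries in every group except male cocaine, which had 2. Proestrus is the stage of high estrogen and diestrus that of low estrogen. For diestrus cocaine library 2 the stage came from its title, as its label gave none.

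The Nr4a genes encode orphan nuclear receptors, transcription factors for which no classical hormone ligand is established. They are immediate early genes, switched on within minutes to hours by neuronal activity and cAMP without new protein synthesis, largely through CREB, which binds the cAMP response element. Nr4a1 (Nur77) and Nr4a2 (Nurr1) act on dopamine systems, and Nr4a2 is required for the development of midbrain dopamine neurons. Nr4a3 (Nor1) is the third member and shares the DNA site of the family, the NBRE.

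Libraries held 75458 to 157005 peaks that covered 42.2 to 107 Mb. The 2 male cocaine libraries stood apart with 75458 and 87707 peaks over 42.2 and 50.7 Mb, against 65.4 to 107 Mb in the other 15, so each result on males is given with that in view. The background under the peaks was 6.26 to 9.55 reads per library. Promoters of all 5 neuron markers were called in every library, as were 7 of 8 markers of medium spiny neurons, the principal cells of this area (the eighth, Pdyn, in 16). No kept region lay at the promoter of any of 3 microglia or 3 endothelium markers. The same held for 3 of 4 astrocyte and 3 of 4 oligodendrocyte markers (Gfap, called in 16 libraries, and Mbp, in 17, were the exceptions). Of 3 markers of cortical excitatory neurons, Slc17a7 was called in 17 libraries, Tbr1 in 12 and Neurod6 in 5, unevenly between groups as given with Nr4a2. In a bulk library, fewer open cells and less open DNA per cell cannot be told apart.

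The DNA before the starts is shown because the results turn on which starts were open. Each holds the 250 bases before an annotated start, 5′ to 3′ in the direction of the gene, read from GRCm38.p6, the build of the peaks. Capitals mark TGACG on either strand (CGTCA on the other), the core of the cAMP response element, whose full form is TGACGTCA. The stretches are chr15:101254019-101254268 and chr15:101266596-101266845 (plus strand) for Nr4a1, chr2:57124004-57124253 and chr2:57115039-57115288 (minus strand) for Nr4a2, and chr4:48044903-48045152 (plus strand) for Nr4a3. None of them overlapped an exon of these genes.
Nr4a1 before its 5′ end: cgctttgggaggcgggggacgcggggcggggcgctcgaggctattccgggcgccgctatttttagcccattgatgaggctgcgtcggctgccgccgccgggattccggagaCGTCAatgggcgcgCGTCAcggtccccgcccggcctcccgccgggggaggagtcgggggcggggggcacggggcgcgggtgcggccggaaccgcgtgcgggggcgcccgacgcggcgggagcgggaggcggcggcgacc
Nr4a1 before its second start: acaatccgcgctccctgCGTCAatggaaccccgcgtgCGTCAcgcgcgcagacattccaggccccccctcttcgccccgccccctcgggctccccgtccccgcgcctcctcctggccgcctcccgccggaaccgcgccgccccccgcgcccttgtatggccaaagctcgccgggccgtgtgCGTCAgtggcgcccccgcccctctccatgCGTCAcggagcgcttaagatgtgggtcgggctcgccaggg
Nr4a2 before its 5′ end: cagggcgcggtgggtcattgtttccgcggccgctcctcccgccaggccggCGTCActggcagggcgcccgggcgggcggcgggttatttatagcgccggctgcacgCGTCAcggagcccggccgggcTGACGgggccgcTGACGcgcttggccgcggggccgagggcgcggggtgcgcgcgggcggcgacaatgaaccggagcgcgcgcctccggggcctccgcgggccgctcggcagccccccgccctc
Nr4a2 before its internal start: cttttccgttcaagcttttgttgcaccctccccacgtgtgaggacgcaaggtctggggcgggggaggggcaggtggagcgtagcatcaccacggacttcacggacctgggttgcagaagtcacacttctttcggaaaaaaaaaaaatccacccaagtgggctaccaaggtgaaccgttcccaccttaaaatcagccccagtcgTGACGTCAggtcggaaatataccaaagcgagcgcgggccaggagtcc
Nr4a3 before its 5′ end: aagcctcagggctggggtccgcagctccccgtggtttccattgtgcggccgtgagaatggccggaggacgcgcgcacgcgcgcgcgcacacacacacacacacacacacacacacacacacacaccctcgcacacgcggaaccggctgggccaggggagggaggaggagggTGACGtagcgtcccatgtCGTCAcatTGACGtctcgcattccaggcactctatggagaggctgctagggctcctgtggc

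The full TGACGTCA stood in 1 of the 5 stretches, 47 bases before the internal start of Nr4a2, and in 1.55% of the same 250 bases of 32851 RefSeq promoters. The core TGACG was present 2 and 4 times before the starts of Nr4a1, 4 and 2 times before those of Nr4a2 (both matches at the internal start belong to the full site) and 3 times before Nr4a3. Of the RefSeq promoters, 17.8% held it at least 1 time. The 250 bases before the 5′ end of Nr4a2 were 80.0% G or C, against 56.0% before its internal start. None of the 5 held the AP-1 site TGACTCA (4.46% of promoters), the NBRE AAAGGTCA (1.34%) or a CArG box (1.47%), and a MEF2 site (2.92%) lay before the 5′ ends of Nr4a1 and Nr4a2. A match describes the letters and is not evidence of binding.

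Peaks lay very differently over the 3 genes. Nr4a1 (chromosome 15, 101254269 to 101274795, plus strand) was among the most widely open genes, with 16.5% to 63.9% of its 60.5 kb (gene and flanks) under peaks, at the 97.6th to 99.3rd percentile of 21755 protein-coding genes in the same library. The flanks of Nr4a1 include the whole of the gene Atg101 and part of 6030408B16Rik, so their peaks count in this percent. Nr4a3 (chromosome 4, 48045153 to 48086447, plus strand) had 5.43% to 12.1% of 81.3 kb under peaks, most of it in 1 block over its 5′ end. Nr4a2 (chromosome 2, 57106830 to 57124003, minus strand) had 0.687% to 4.51% of 57.2 kb under peaks, and its percentile lay between 24.7 and 55.8. Its constant peak stood inside the gene, and its other 3 kept regions were an intron region and weak regions at -252 and -14714 bp, called in 3 and 2 libraries.

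**Figure D1:**
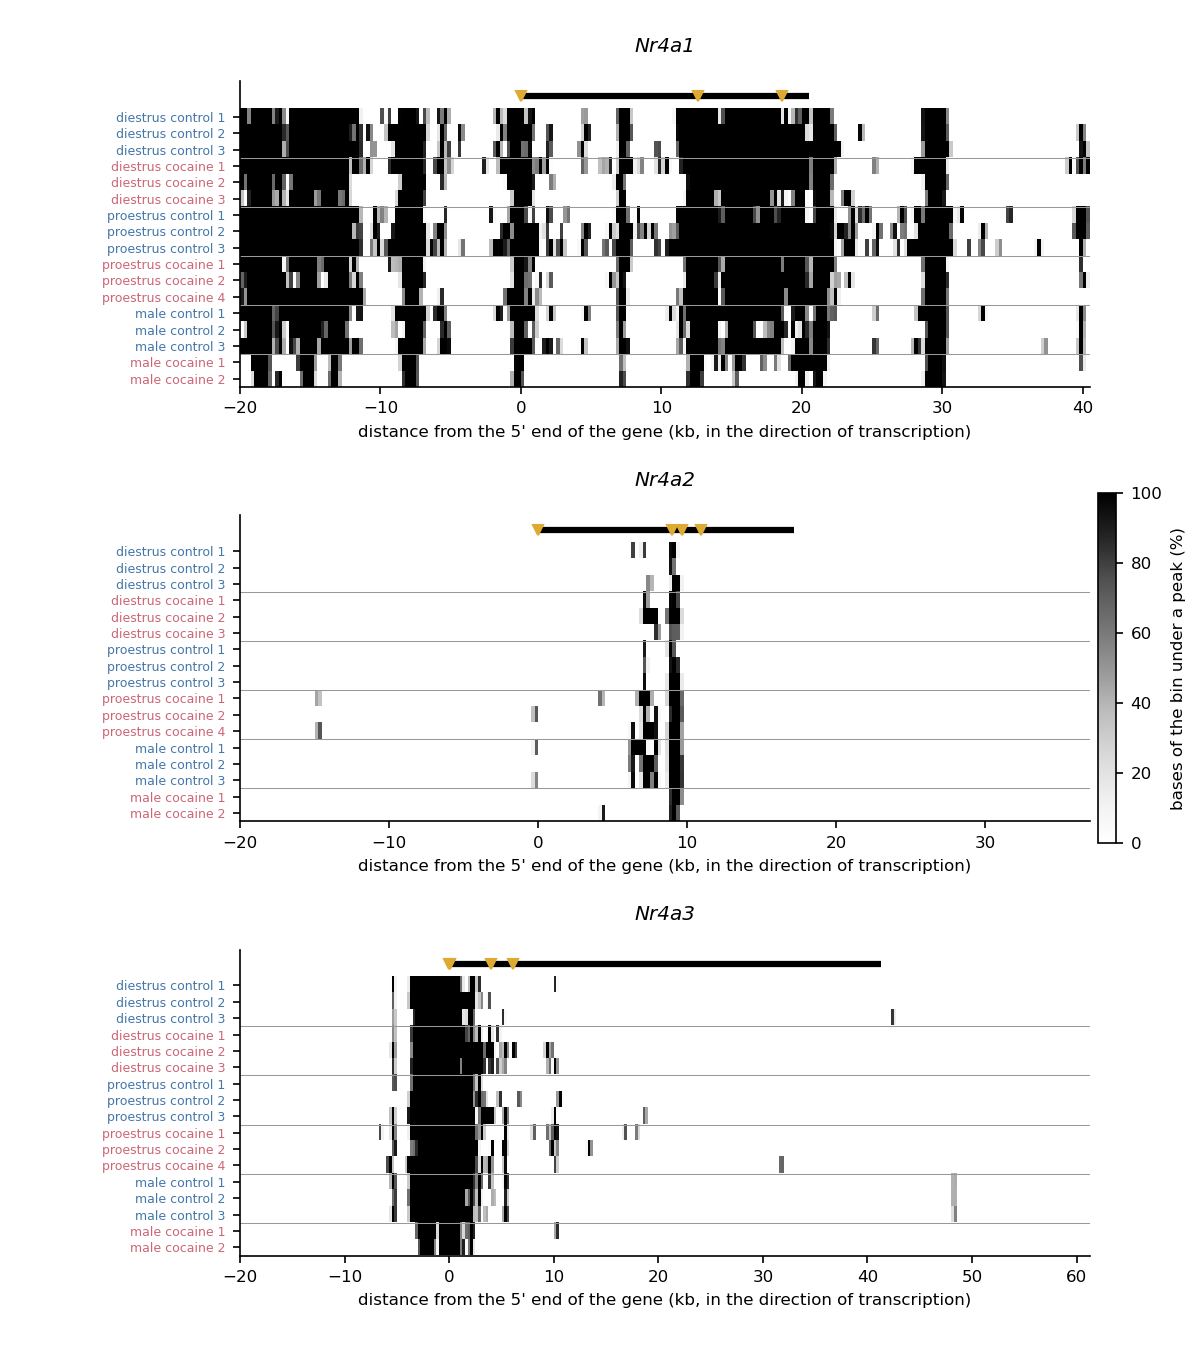
Share of each 250 bp bin under a peak (grey scale, percent) in each of 17 libraries (rows; blue names control, red names cocaine) against distance from the 5′ end of each gene in kb. The black bar is the gene and yellow triangles are annotated starts. Nr4a1 is open over long stretches in all groups and least in the 2 male cocaine libraries, while Nr4a2 has its constant peak at the internal start and none over its 5′ end.

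Of 11 annotated starts of the 3 genes (GENCODE vM21), 5 lay under a peak in all 17 libraries. These were the 5′ end and the second start of Nr4a1 (101254269 and 101266846), the internal start of Nr4a2 (57115038) and the first pair of Nr4a3 starts (48045153 and 48045231). The 5′ end of Nr4a2 (57124003), used by 2 annotated transcripts, lay under no peak in any library, although at -252 bp a peak was called in male controls 1 and 3 and proestrus cocaine 2, with fold enrichments of 2.80, 2.96 and 3.21. The third start of Nr4a1 (101272861) was covered in 12 libraries and in neither male cocaine library. The third start of Nr4a3 (48049114) was covered in 6 libraries, namely all 3 of diestrus cocaine and none of diestrus control, 1 of proestrus control, 1 of proestrus cocaine, 1 of male control and none of male cocaine. A start went from no diestrus control to all diestrus cocaine libraries at 0.195% of 93145 annotated starts of protein-coding genes. The other starts were covered in 5, 1 and 0 libraries.

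Fold enrichment, the pileup of reads at the summit over the background of the library, measured how strongly a region was open. Regions are numbered along the chromosome at each gene. Of the 8 regions called in every library, 6 were at Nr4a1. There, R3 had its strongest summit at -7856 bp from the 5′ end (chr15:101244329-101247612) and had the highest values of that gene, 20.7 to 38.9. R7 held the 5′ end (chr15:101252038-101256623), with 6.55 to 15.3, and R15 held the second start and most of the gene after it (chr15:101264450-101278138), with 14.8 to 27.8. R1 (summit at -18299 bp) had 8.84 to 19.4 and R11, in an intron, 3.33 to 7.60. R20, with 9.30 to 18.99, lay at the start of the neighbor Atg101 rather than of Nr4a1.

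At Nr4a3, R3 (chr4:48041072-48049496) ran over 8425 bp, and its strongest summit stood at -1774 bp from the 5′ end. Its values of 21.04 to 39.8 were the highest of the 3 genes. At Nr4a2, R1 (chr2:57114296-57115409) covered the internal start, with its strongest summit 118 bp inside the untranslated first exon, and its values were only 3.02 to 7.85. Summits rested on 25 to 63 reads at Nr4a2 R1, a counting error of 12.6% to 20%, and on 180 to 332 reads at Nr4a3 R3, an error of 5.49% to 7.45%. PCR copies were not marked by molecular identifiers, so these errors cover counting only.

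The strongest summits of Nr4a1 and Nr4a3 stood away from any start, and the 201 bases around each are given, chr15:101246313-101246513 and chr4:48043279-48043479, both plus strand, with TGACG and its other strand in capitals.
Nr4a1 R3 summit: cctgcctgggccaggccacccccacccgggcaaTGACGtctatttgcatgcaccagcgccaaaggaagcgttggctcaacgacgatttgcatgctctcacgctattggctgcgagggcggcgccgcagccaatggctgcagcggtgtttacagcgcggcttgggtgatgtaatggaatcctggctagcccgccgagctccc
Nr4a3 R3 summit: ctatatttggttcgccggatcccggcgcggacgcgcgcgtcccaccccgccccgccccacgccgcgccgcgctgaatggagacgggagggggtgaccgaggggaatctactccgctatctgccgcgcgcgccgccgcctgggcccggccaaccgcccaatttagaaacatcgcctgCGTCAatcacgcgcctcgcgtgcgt

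Each held TGACG 1 time. Over all 27 kept regions of the 3 genes, 9 (33.3%) held it within 100 bp of the summit, against 9.59% of the 147420 kept regions of the series. A MEF2 site was present in 3 (11.1%, against 5.85%). The AP-1 site was present in none of the 27, against 10.1% of all kept regions, and the full cAMP response element (0.498% of all), the NBRE (0.703%) and the CArG box (1.12%) were also absent.

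The internal start of Nr4a2 was more open in male than in female controls. Fold enrichment at R1 was 6.37, 7.85 and 7.03 in male controls. It was 4.26, 3.24 and 3.22 in diestrus controls and 3.06, 3.02 and 4.27 in proestrus controls. Every male control thus lay above every female control, as in 32.6% of 36847 regions.

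After the median of each library was subtracted on the log2 scale, male controls (-0.33, 0.08 and -0.09) still lay above all 6 female controls (-1.09 to -0.49), a separation seen in 10.7% of these regions. The difference was 0.73 ± 0.17 (SE, log2), or 1.66-fold, with an adjusted p of 0.00146 (limma over 36847 regions). It was the only called difference between male and female controls among the 8 regions, while 10.5% of all regions were higher and 14.4% lower in male than female controls. Leaving out any 1 library gave 0.64 to 0.84, and the call held each time. Without centring the difference was 1.02, since fold enrichment of all regions was higher in male controls by a median of 0.25.

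Markers of cell types moved in the same comparison. Of the cortical excitatory list, Neurod6 was called in all 3 male controls, in 2 proestrus cocaine libraries and in no other. Tbr1 was called in all libraries of 4 groups and in none of diestrus control or male cocaine, so it was gained in diestrus and, like Neurod6, lost in males. Of all kept regions, 1.16% were gained in diestrus and 16.8% lost in males. Uncentred fold enrichment was summed over the 3 promoters, with nothing added for a promoter not called. The sum was 23.7 to 26.5 in male controls and 11.3 to 15.2 in female controls. It was 8.73 to 16.7 in female cocaine and 7.56 to 10.4 in male cocaine libraries. Male controls lay above all female controls in this sum, as in 32.6% of single regions before centring. They also lay above both male cocaine libraries, as in 66.2% of single regions. The third marker, Slc17a7, was not called between male and female controls (0.02, limma adjusted p = 0.920) and was lower after cocaine in diestrus (-0.57, limma adjusted p = 0.0217).

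Of 7 medium spiny neuron markers fitted, 4 were lower in male than female controls and 0 higher, against 14.4% and 10.5% of all regions. The 4 lower markers were Ppp1r1b (-0.68, limma adjusted p = 0.000209), Drd2 (-0.66, adjusted p = 0.00157), Tac1 (-0.66, adjusted p = 0.00176) and Drd1 (-0.47, adjusted p = 0.0154). The uncentred sum over all 8 markers overlapped, at 59.1 to 71.3 in male and 62.3 to 74.6 in female controls. The part of these cell type markers in the values of Nr4a2 was not tested.

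After cocaine, Nr4a2 R1 had 4.04, 4.91 and 4.82 in diestrus females. It had 5.01, 4.60 and 5.45 in proestrus females and 3.94 and 4.42 in males. In proestrus every cocaine library lay above every control library, also after centring (-0.41 to -0.16 against -0.94 to -0.49), as in 11.9% of all regions. In diestrus the centred values overlapped. In males they overlapped after centring, and before it both cocaine libraries lay below the controls, as in 66.2% of all regions.

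The diestrus cocaine difference at Nr4a2 R1 was 0.35 ± 0.19 (SE, log2, limma adjusted p = 0.222). It was 0.45 ± 0.19 in proestrus (limma adjusted p = 0.167) and -0.27 ± 0.21 among males (limma adjusted p = 0.425), and none passed. Without centring the male value was -0.76 (limma adjusted p = 0.00650), where the median of all regions was -0.40. The male difference less the mean female difference was -0.68 ± 0.25, with a 95% interval of -1.19 to -0.16. It missed the threshold in limma (adjusted p = 0.0557), while 6.53% of all regions were called lower and 11.9% higher in this comparison. Without diestrus cocaine library 1, the diestrus difference was 0.55 (limma adjusted p = 0.0313) and the male less female difference -0.79 (limma adjusted p = 0.0123). The latter also passed without any of 4 other libraries. Ordered by mean fold enrichment, male control (7.08 ± 0.74, SD) stood first, then proestrus cocaine (5.02 ± 0.42), diestrus cocaine (4.59 ± 0.48), male cocaine (4.18 ± 0.34), diestrus control (3.57 ± 0.60) and proestrus control (3.45 ± 0.71). The first and next of these did not overlap, and all other neighbors in the order did. After centring, male control and proestrus cocaine overlapped as well, male cocaine (mean -0.39) stood before diestrus cocaine (-0.57), and proestrus control (-0.77) before diestrus control (-0.92).

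**Figure D2:**
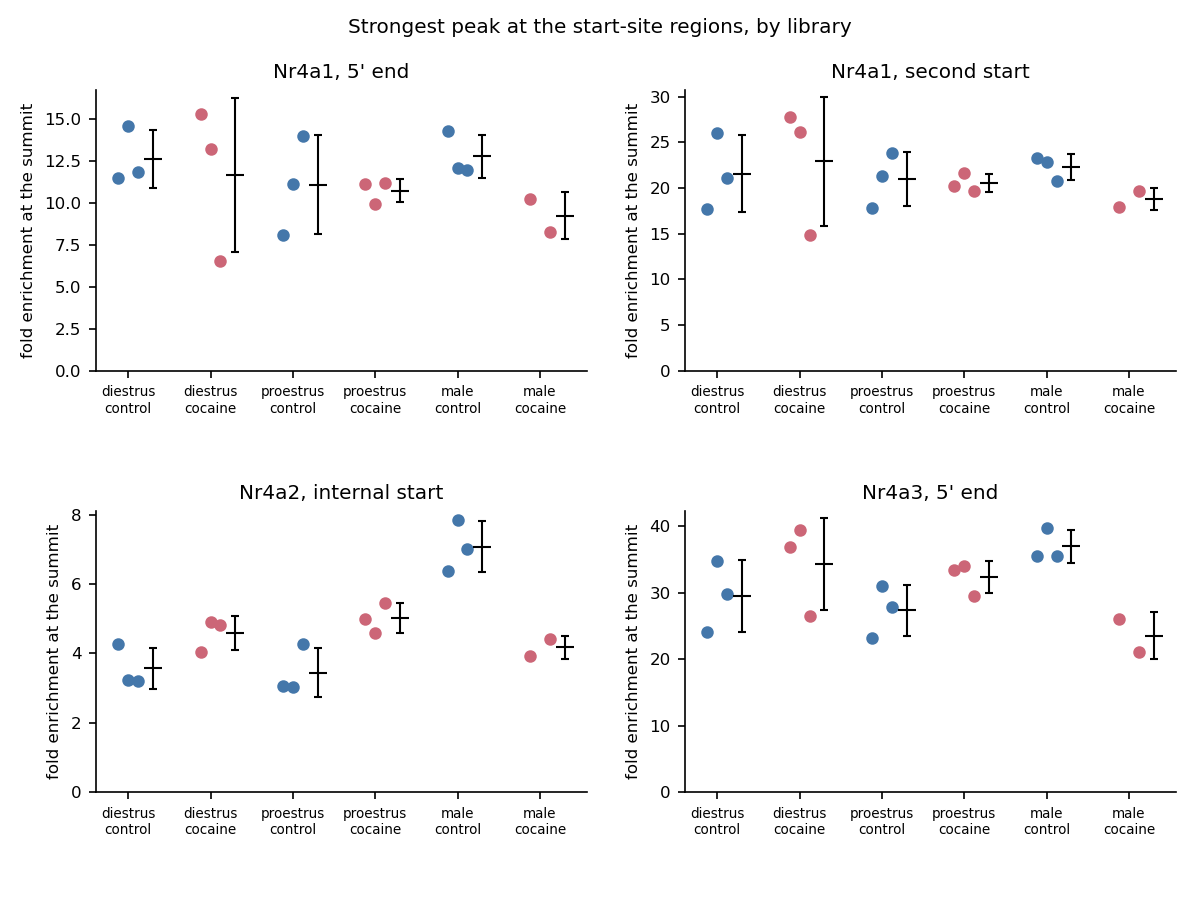
Fold enrichment of the strongest peak in each library at 4 regions over starts (blue control, red cocaine; the bar and whiskers give mean ± SD of the group, n = 3, or 2 for male cocaine). At the internal start of Nr4a2 the 3 male controls sit at 6.37 to 7.85, above the other 14 libraries at 3.02 to 5.45.

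Behind the internal start, Nr4a2 R2 (chr2:57115884-57117901), in an intron of the long transcripts with its strongest summit at -1811 bp from the internal start, was also widest in male controls. In male controls 1447, 1457 and 1221 bp of it lay under peaks, in proestrus cocaine 959, 659 and 1280 bp and in diestrus cocaine 358, 1060 and 331 bp. It was 229, 211 and 238 bp in proestrus controls, 434, 0 and 237 bp in diestrus controls and 0 bp in both male cocaine libraries. Every proestrus cocaine library lay above every proestrus control, as in 9.38% of all kept regions, and both male cocaine libraries lay below the male controls, as in 40.5%. Where it was called, fold enrichment was 2.59 to 5.16.

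At the other start regions no cocaine difference passed. Nr4a1 R7 had 11.5, 14.6 and 11.8 in diestrus controls and 15.3, 13.2 and 6.55 after cocaine, 8.13, 11.1 and 14.03 in proestrus controls and 11.1, 9.95 and 11.2 after cocaine, and 14.3, 12.1 and 12.0 in male controls and 10.3 and 8.25 after cocaine. Before centring, male cocaine lay below male control, as in 66.2% of all regions, and the other pairs overlapped. The centred diestrus difference was -0.21 ± 0.17, that of proestrus -0.12 ± 0.17 and that of males 0.02 ± 0.19 (adjusted p in limma of 0.408, 0.726 and 0.966).

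Nr4a1 R15 had 17.7, 26.01 and 21.1 in diestrus controls and 27.8, 26.2 and 14.8 after cocaine. In proestrus it had 17.8, 21.4 and 23.8 in controls and 20.2, 21.6 and 19.7 after cocaine, and in males 23.3, 22.9 and 20.7 in controls and 17.9 and 19.6 after cocaine. Its centred differences were 0.03 ± 0.14, -0.13 ± 0.14 and 0.24 ± 0.16 (adjusted p in limma of 0.909, 0.634 and 0.351).

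Nr4a3 R3 had 24.01, 34.7 and 29.8 in diestrus controls and 36.9, 39.5 and 26.4 after cocaine. In proestrus it had 23.2, 31.0 and 27.8 in controls and 33.3, 34.0 and 29.5 after cocaine, and in males 35.6, 39.8 and 35.6 in controls and 26.02 and 21.04 after cocaine. Its centred differences were 0.19 ± 0.14 and 0.14 ± 0.14 in diestrus and proestrus and -0.17 ± 0.16 in males (adjusted p in limma of 0.379, 0.586 and 0.507). The male less female difference was -0.34 ± 0.19 (limma adjusted p = 0.194).

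Over the 8 regions, 0 passed in diestrus, proestrus or males, where 11.1%, 3.4% and 9.56% of all regions passed in either direction. Without adjustment p was under 0.05 for 2, 2 and 0 of the 8, against 28.7%, 20.9% and 26.4% of all regions. These were Nr4a1 R1 and R11 in diestrus and Nr4a1 R1 and Nr4a2 R1 in proestrus. Centred means of Nr4a1 R1 were 1.35 in diestrus controls and 1.04 after cocaine, and 1.33 and 0.99 in proestrus. Those of R11 in diestrus were 0.026 and -0.39. For the mean over sexes and stages 0 of 8 passed (lowest limma adjusted p = 0.0867), against 13.8% of all regions. Estimates ran from -0.41 to 0.35 in diestrus, -0.34 to 0.45 in proestrus and -0.27 to 0.24 in males, and their 95% intervals reached from -0.77 to 0.84 at most. Differences of that size were thus not excluded by these libraries. The diestrus and proestrus controls differed by -0.18 to 0.02, with 0 of 8 past the threshold in limma (0.318% of all regions) and 0 under 0.05 without adjustment (14.4%).

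**Figure D3:**
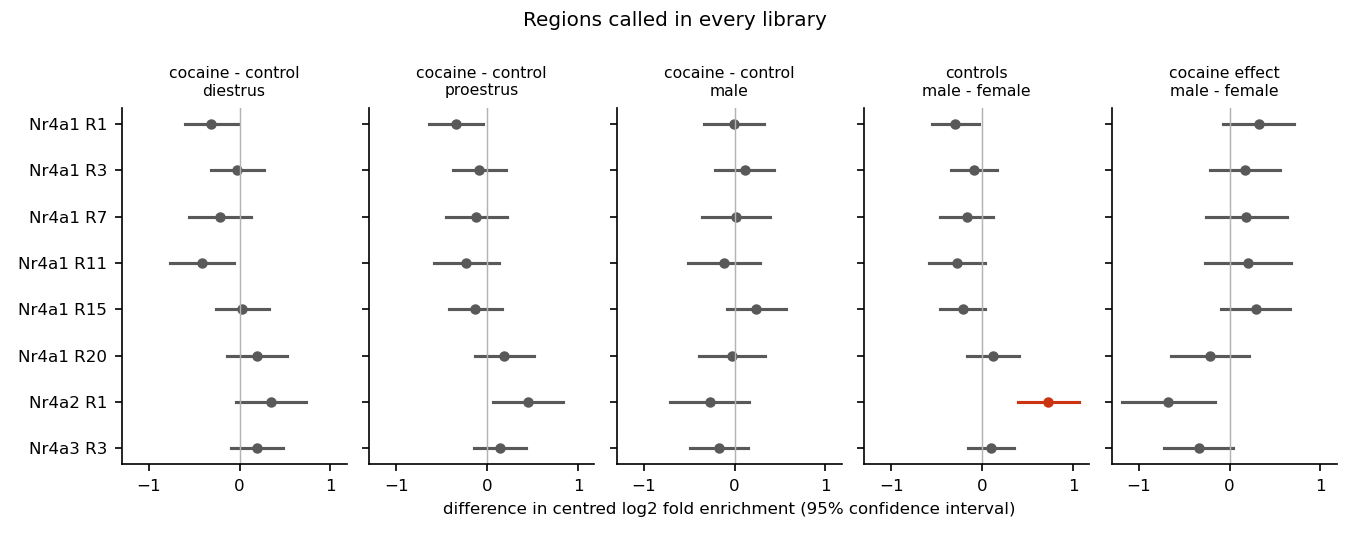
Difference in centred log2 fold enrichment (points) with 95% confidence intervals from limma at the 8 regions called in every library, for 5 comparisons. Red marks an adjusted p under 0.05. Only Nr4a2 R1 is red, at 0.73 in male minus female controls, and its male less female cocaine difference of -0.68 just misses.

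The 19 kept regions that some libraries lacked were weak, with fold enrichments of 2.08 to 5.16. They were called in 2 to 14 libraries, and 12 lay outside the Nr4a genes, some of them within neighboring genes, and 7 in introns. Over all libraries, 8 cocaine against 9 control, only regions called in 4 to 13 libraries were tested. Nr4a2 R2 and Nr4a3 R2, each called in 14, were thus left out, and 8 of the 19 were tested. None passed Fisher's exact test (two-sided) with Benjamini-Hochberg adjustment, as 0% of the 64304 regions tested were called more often and 0% less often.

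Without adjustment, 2 of the 8 were called less often after cocaine, both at Nr4a1, and 0 more often, against 9.23% and 3.81% of all tested regions. R4 (chr15:101247775-101249335), at -5567 bp from the 5′ end, was called in all 9 controls (fold enrichment 2.85 to 3.95) and in 3 of 8 cocaine libraries (2.41 to 3.09), with p = 0.00905 and adjusted p = 0.273 in Fisher's exact test. R10, in an intron, was called in 7 of 9 controls and 1 of 8 cocaine libraries (p = 0.0152 and adjusted p = 0.278 in Fisher's exact test). At Nr4a3, R8 in an intron had peaks in 6 of 8 libraries after cocaine and in 3 of 9 without it (p = 0.153 in Fisher's exact test).

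A region called in every control and no cocaine library of a sex and stage was counted as lost, and the converse as gained. In diestrus, 0 of the 27 kept regions were gained and 0 lost, against 1.16% and 1.26% of all kept regions. In proestrus 0 were gained and 2 lost, against 2.45% and 1.64%, and both were flanks of Nr4a1. R2, at -10957 bp, had fold enrichments of 2.43, 3.02 and 2.84 in proestrus controls, and R19, 27012 bp after the 5′ end, had 3.59, 2.67 and 2.46 there and was called in no other group.

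In males 0 were gained and 5 lost, against 1.66% and 16.8% of all kept regions. They were Nr4a1 R4 (3.82, 3.44 and 3.95 in male controls), Nr4a2 R2 (3.82, 4.54 and 5.16), Nr4a3 R2 at -5236 bp (3.31, 3.99 and 3.29), Nr4a3 R4 in an intron (3.95, 3.31 and 4.28) and Nr4a3 R15 after the gene (3.06, 3.44 and 2.74). R15 was called in male controls alone. With the same number of strongest peaks taken from each library, 1 region was lost in males and 0 in proestrus. Without proestrus control 1 the proestrus count was 7, and without male control 2 the male count was 8.

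The percent of gene and flanks under peaks needs no region to be called. At Nr4a1 it was 43.5, 50.6 and 49.6 in diestrus controls and 55.4, 40.1 and 34.7 after cocaine. In proestrus it was 52.2, 59.9 and 63.9 in controls and 40.2, 39.9 and 41.9 after cocaine, and in males 47.7, 34.4 and 43.9 in controls and 21.9 and 16.5 after cocaine. Groups overlapped in diestrus, and every cocaine library lay below every control in proestrus and in males, as for 25.3% and 63.3% of all genes.

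The mean difference of the 3 pairs of groups at Nr4a1 was -15.1 percentage points (exact permutation test within sex and stage, two-sided, p = 0.00275 over 4000 assignments). Adjusted over 21755 genes p was 0.0540, so it was not called. No gene was called at an adjusted p under 0.05 (0% more and 0% less), and without adjustment 34.9% of genes were lower and 2.04% higher after cocaine. Relative to the total under peaks in the library, the difference was -6.45 points (exact permutation p = 0.00600, adjusted p = 0.0507), the mean of -14.6 in proestrus, -3.83 in males and -0.88 in diestrus. Without diestrus cocaine library 1 the absolute difference was -17.1, with an adjusted p of 0.00699 in the same permutation test.

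At Nr4a2 the percent was 1.66, 0.687 and 1.40 in diestrus controls and 1.84, 3.54 and 1.56 after cocaine. In proestrus it was 1.24, 1.59 and 1.87 in controls and 4.19, 3.19 and 4.37 after cocaine, and in males 4.51, 4.31 and 4.23 in controls and 1.47 and 1.57 after cocaine. Every proestrus cocaine library lay above every proestrus control, as for 14.3% of genes. Both male cocaine libraries lay below the male controls, as for 63.3% of genes. Male controls lay above all female controls, as for 18% of genes. They also lay above all female controls in the uncentred sum of cortical excitatory markers, as in 32.6% of single regions. The part of these markers in the percent was not tested.

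At Nr4a3 it was 7.86, 8.61 and 7.56 in diestrus controls and 8.73, 12.1 and 11.02 after cocaine, with no overlap, as for 11.2% of genes. In proestrus it was 8.41, 9.87 and 11.7 in controls and 11.6, 10.5 and 11.2 after cocaine, with overlap. In males it was 10.3, 9.34 and 9.70 in controls and 6.54 and 5.43 after cocaine, lower without overlap, as for 63.3% of genes. The mean differences at Nr4a2 (0.20 points, exact permutation p = 0.767) and Nr4a3 (-0.02 points, p = 0.985) did not pass. Relative to the total of the library, Nr4a3 was higher by 2.42 points (adjusted p = 0.0438 in the permutation test), as were 7.77% of genes.

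**Figure D4:**
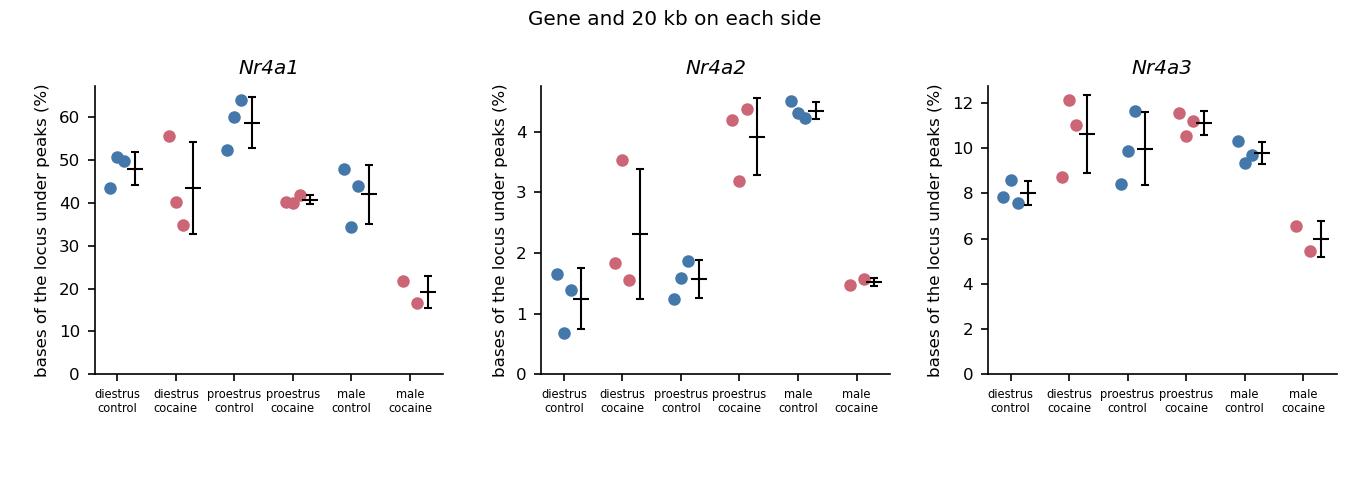
Percent of each gene and its 20 kb flanks under peaks, by library (blue control, red cocaine; bar and whiskers are mean ± SD, n = 3, or 2 for male cocaine). Nr4a2 sits at 4.23 to 4.51 in male controls and 3.19 to 4.37 in proestrus cocaine, and at 0.687 to 1.87 in female controls.

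Whether cocaine moved the percent differently in males and females was examined by permuting sex within treatment, with female stages pooled, a test added after the values were seen. Its p-values run over all assignments but are exact only where the sexes differ in neither treatment. They therefore do not measure the difference in cocaine effect alone. At Nr4a2 male controls (4.23 to 4.51) already lay above female controls (0.687 to 1.87). The male less female difference was -4.53 points at Nr4a2 (exact permutation p = 0.000850 over 2352 assignments, adjusted p = 0.00750) and -5.66 at Nr4a3 (p = 0.00850, adjusted p = 0.0388). The Nr4a3 call was lost, at -6.21 to -5.11 points, without any 1 of 8 libraries, among them both male cocaine libraries. It was -11.5 at Nr4a1 (exact permutation p = 0.354). In all, 24.3% of genes were called lower in this test, beside the low totals of the male cocaine libraries. Relative to those totals the difference was -3.03 at Nr4a2 (exact permutation p = 0.0132, adjusted p = 0.0755) and -1.02 at Nr4a3 (p = 0.594), and neither passed.

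The other genes of the pathway were a list of 25. Of these, 17 had a promoter region called in every library and 6 had no kept region within 1 kb of their 5′ end. No kept region lay at the promoters of 5 of the 6 textbook targets of Nr4a receptors. That of the sixth, Ret, the receptor of a neurotrophic factor family, was called in all 17 libraries. Of the 17, Creb1, the activator of these genes, was higher after cocaine in diestrus (0.51, limma adjusted p = 0.0241). No other passed in diestrus and none in proestrus or males, where 11.1%, 3.4% and 9.56% of all regions passed in either direction. The mean over sexes and stages passed for the coactivator gene Ncoa1 (0.33, limma adjusted p = 0.0216), and for 13.8% of all regions.

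In the male less female cocaine difference, Srf, which encodes the factor of the CArG box (0.61, limma adjusted p = 0.0363), was higher. So was Rxrb, a dimer partner (0.68, limma adjusted p = 0.0271), and 0 genes of the list were lower. Of all regions, 11.9% were higher and 6.53% lower. Between controls, Atf1 (-0.41, limma adjusted p = 0.0229) and Crebbp (-0.38, adjusted p = 0.0443), which encode a CREB relative and a CREB coactivator, were lower in males, and 0 were higher. In this comparison 14.4% of all regions were lower and 10.5% higher. A weak region at the promoter of Mef2c was gained in males, as were 1.66% of all kept regions.

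The promoters that varied most like those of the Nr4a genes over the 17 libraries were found by Pearson correlation of centred log2 fold enrichment, as a description. For Nr4a1 R7 they were Rab4a (r = 0.84), Chd5 (0.84) and Pianp (0.81), of 9902 promoters, 1% of which exceeded 0.65. For Nr4a3 R3 they were Epm2a (0.85), Efcab7 (0.84) and Gpbp1 (0.83), with 1% above 0.73. The 5′ end of Nr4a2 had no region called in all libraries, so R1 at its internal start was taken, a choice made after its values were seen. Its closest were Nap1l3 (0.92), Slitrk1 (0.92) and Smc2 (0.90), with 1% above 0.79. The points share libraries, depth and the male and female groups.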

How the data were processed

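ATAC-seq libraries of sorted nuclei were aligned by the authors to mm10 with BWA, and MACS2 called peaks in each library separately (options not given in the sources used here). As deposited, each peak carries its fold enrichment (reads at the summit relative to background) and −log10 p and q values, with no scaling across libraries. Replicates were not pooled beyond the 3 mice of a library, so p-values measure the spread between such pools.

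Peaks were merged over the 17 libraries by 1 bp of overlap, and a region was kept where at least 2 libraries of a group called it. Regions called in 4 to 13 libraries were tested by Fisher's exact test (scipy 1.17.1). For the 36847 regions called in every library, log2 fold enrichment of the strongest peak, less the library median, was fitted over the 6 groups in limma 3.58.1 (empirical Bayes with trend). The percent of gene and 20 kb flanks under peaks was tested by exact permutation. P-values were adjusted by Benjamini-Hochberg over all features, with a threshold of 0.05. The Fisher test, the permutation of cocaine within sex and stage, and the limma comparison of male and female controls were tried on simulated data. The permutation of sex within treatment was not. A named promoter was a kept region within 1 kb of the 5′ end of its gene in GENCODE vM21, except at Nr4a2. Starts inside the listed genes were not searched. Sequences came from GRCm38.p6 and RefSeq.

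The genes and lists were chosen with earlier results of these data known. Named were the regions at starts, those called in every library, those that passed a test or were gained or lost, pathway genes that passed (results of 1 listed gene are not reported here), and the 3 promoters most alike. Nr4a1 R10 and Nr4a3 R8 were named after their values were seen. The test of sex by coverage, and windows around summits, were added after the data were seen. Other alternatives concerned peak thresholds, peak numbers, centring, single libraries and a replicate block.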

Additional observations from a re-analysis of the deposited data

Results flagged for a closer look

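The percent of Nr4a2 and its flanks under peaks moved with cocaine by -4.53 points in males relative to females (permutation of sex within treatment, adjusted p = 0.00750). That test is exact only where the sexes differ in neither treatment, so its p-values do not measure the difference in cocaine effect alone. Cocaine less control was 1.07 points in diestrus, 2.35 in proestrus and -2.82 in males. For Nr4a3 the male less female value was -5.66 points (exact permutation, adjusted p = 0.0388), from 2.62 points in diestrus, 1.12 in proestrus and -3.79 in males. Both rest on 2 male cocaine libraries with the smallest totals under peaks of the 17, and the median of all genes in this comparison was -0.81 points. The uncentred summed fold enrichment of cortical excitatory markers was 23.7 to 26.5 in male controls and 7.56 to 10.4 in male cocaine libraries. That of medium spiny neuron markers was 59.1 to 71.3 in male controls and 53.8 to 56.5 in male cocaine libraries. Before centring, both male cocaine libraries lay below the male controls in 66.2% of all regions. The part of these markers in the values above was not tested. Relative to the total of each library, the values were -3.03 points at Nr4a2 and -1.02 at Nr4a3, and neither passed.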

How the results depend on the processing

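For 30 results, 676 alternative values were computed. Of these, 615 kept direction and side of the threshold or, for counts of regions, stayed equal or near the main count. Results that passed in neither setting are among them. The higher fold enrichment of Nr4a2 R1 in male than female controls passed in every alternative that gave a value; when peaks under a −log10 q of 5 were dropped it was not called in every library and gave none. With the same number of strongest peaks per library, 1 region was gained in diestrus and 1 in proestrus, and 0 were lost in proestrus and 1 in males. Without those weaker peaks, 1 was gained and 0 lost in proestrus, and 0 were lost there when peaks had to cover 50% of a region.

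Without centring, the male cocaine difference reversed at Nr4a1 R7 (-0.47) and R15 (-0.25), and the male less female difference at Nr4a2 R1 was -1.22 and passed. Under quantile normalization these were -0.064 at R7 in males, -0.016 at R15 in diestrus and -0.69 at Nr4a2 R1, which passed, as did -0.69 with equal peak numbers. Relative to all peaks of the library, the male less female percent was 3.94 at Nr4a1, -3.03 at Nr4a2 and -1.02 at Nr4a3. The Nr4a3 value was -3.13 with equal peak numbers and -6.64 over the gene body, neither passing. The cocaine difference in percent at Nr4a3 was 1.19 over the gene body and 2.42 relative to all peaks, of which the latter passed.

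Of 7 pairs of same-numbered libraries, 2 deviated together with r over 0.1 (r from -0.29 to 0.20). Deviations from means of 2 or 3 libraries cancel within a group, so these values cannot decide whether the numbers pair libraries. With a replicate block, Nr4a1 R7 in males was -0.017, the percent at Nr4a3 0.23 and the male less female control difference at Nr4a2 R1 0.73.

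Leaving out each library gave 0 to 1 gained and 0 to 1 lost regions in diestrus, 0 to 1 gained and 2 to 7 lost in proestrus, and 0 to 1 gained and 5 to 8 lost in males. Cocaine differences were -0.31 to 0.047 at Nr4a1 R7 in proestrus and -0.10 to 0.18 in males, and -0.076 to 0.16 at R15 in diestrus. The male less female value at Nr4a2 R1 was -0.79 to -0.53. In percent, cocaine less control was -17.1 to -13.6 at Nr4a1, -0.0076 to 0.32 at Nr4a2 and -0.28 to 0.30 at Nr4a3, and the male less female value at Nr4a3 was -6.21 to -5.11. The cause of these changes was not tested. Peak calls carry no reads between peaks, so a locus without a peak was not shown to be closed.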
